A study of Homo sapiens with 16 samples.

Results

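The BCL2 family of apoptosis regulators was followed through a BRD9 deletion time course in G401 cells. The genes were taken by symbol, and all 10 were found once each among the 57820 genes of the tables. BCL2, BCL2L1, BCL2L2 and MCL1 restrain apoptosis. BAX and BAK1 are the effectors that open the outer mitochondrial membrane, and BCL2L11, BID, BAD and BIK belong to the BH3-only group, whose members promote apoptosis. All 10 passed the filter on low counts and were among the 15027 genes tested.

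G401 is an established rhabdoid tumor cell line of the kidney that lacks SMARCB1, a subunit of the SWI/SNF chromatin remodeler, and BRD9 is a subunit of another form of that remodeler. Cells with a CRISPR-Cas9 knockout of BRD9 (BRD9 KO) were set against control cells whose guide targets LacZ, a gene of bacteria, on days 1, 2, 3 and 5, and the libraries were made from total RNA of cells grown in DMEM with serum. There were 2 libraries for each guide and day, 8 of each guide and 16 in all. By the study's methods, knockouts were made in lines with stable Cas9 by lentiviral guides under puromycin, and no step of single-cell cloning is described for them. The groups stand for 1 cell line, both guides were carried in the same SMARCB1-mutant background, and the event from which days are counted is not given in the sources used here. The study's methods call the 2 libraries of a group biological replicates, without saying how their cultures were separated, and the p-values measure the spread between these libraries.

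The labels were checked first. The deposited TPM (a level per transcript length and library total) of BRD9 was 12.3 to 20.27 in the BRD9 KO, against 34.96 to 49.12 in the LacZ libraries, so the groups did not overlap and BRD9 RNA was still present in every BRD9 KO library. SMARCB1 stood at 0 TPM in 15 of 16 libraries and VIM, a mesenchymal marker, at 1366 to 1922 TPM. Of the blood markers reported, PTPRC, CD3E and HBB were at 0 TPM in all 16 libraries and HBA1 was at 2.33 to 3.63 TPM in BRD9 KO, against 1.56 to 4.78 TPM in LacZ libraries. The summed TPM of the endothelial markers was at most 0.69 and that of the epithelial markers at most 1.14. The 13 mitochondrially encoded mRNAs took 4.558% to 5.375% of counts in BRD9 KO, against 4.002% to 5.136% in LacZ libraries. Library totals were 9185808 to 16560669 counts in BRD9 KO, against 11252814 to 15430060 in LacZ libraries.

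Members of this family meet at the outer mitochondrial membrane. The BH3 helix of a BH3-only protein, or of BAX or BAK1, docks into a groove on the restraining proteins, and BAX and BAK1 that are not held in check assemble into pores that release cytochrome c and so lead to caspase activation. Cell fate is set by the proteins and their binding, which RNA levels do not measure.

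The BH3 core is the stretch that the family shares, and it is shown for the 4 members that passed the test on day 3 or day 5. The reading frames come from the GENCODE annotation and the bases from the GRCh37 genome; capitals mark the codons of the glycine (serine in BAD) and the aspartate at the center of the core.
BCL2: ctccgccaggccGGCGACgac
BCL2L1: ctgagggaggcaGGCGACgag
BAX: ctcaagcgcatcGGGGACgaa
BAD: ctccggaggatgAGTGACgag
The BCL2 stretch lies at chr18:60985591-60985611 in exon 2 on the minus strand, and the BCL2L1 stretch at chr20:30309734-30309754, also in exon 2 on the minus strand. That of BAX lies at chr19:49459044-49459064 in exon 3 on the plus strand, and that of BAD at chr11:64039103-64039123 in exon 3 on the minus strand. BCL2 (ENSG00000171791.10) spans chr18:60790579-60987361, BCL2L1 (ENSG00000171552.8) chr20:30252255-30311792, BAX (ENSG00000087088.15) chr19:49458072-49465055 and BAD (ENSG00000002330.9) chr11:64037302-64052176. The capitals are the same bases in BCL2 and BCL2L1 and differ in BAX and BAD.

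Compared per transcript length, BAX RNA was far above that of the other members. BAX averaged 304.6 ± 33.9 TPM in BRD9 KO and 279.3 ± 28.4 TPM in LacZ libraries (SD, n = 8 each, over the 4 days), and its lowest library, at 234.74 TPM, lay above the highest BAD library, at 110.73 TPM. BAD followed with 94.63 ± 10.4 TPM in BRD9 KO and 89.92 ± 6.31 TPM in LacZ libraries, then MCL1 with 88.64 ± 6.97 TPM in BRD9 KO and 87.9 ± 6.9 TPM in LacZ libraries, and BCL2L1 with 78.34 ± 2.66 TPM in BRD9 KO and 81.28 ± 4.63 TPM in LacZ libraries (SD, n = 8 each). BAD overlapped MCL1, and MCL1 overlapped BCL2L1, in their ranges across libraries. Within libraries, BAD was below MCL1 in every library of day 1 and above it in every library of days 2 and 3, so their order varied. MCL1 was above BCL2L1 in every library except those of LacZ on day 3, at 82.66 and 79.85 TPM against 86.14 and 81.9 TPM.

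BID, at 35.81 to 47.75 TPM over all 16 libraries, and BAK1, at 34.35 to 43.03 TPM, overlapped each other and lay below every BCL2L1 library. BCL2L2 followed at 15.81 to 21.6 TPM, below every BAK1 library. BCL2 had the lowest median of the restraining members, at 6.53 to 16.05 TPM in BRD9 KO, against 7.65 to 14.58 TPM in LacZ libraries. Its highest library, at 16.05 TPM, lay just above the lowest BCL2L2 library, at 15.81 TPM. The BH3-only genes BIK, at 4.3 to 12.46 TPM, and BCL2L11, at 3.85 to 9.06 TPM, overlapped BCL2 and each other.

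**Figure D1:**
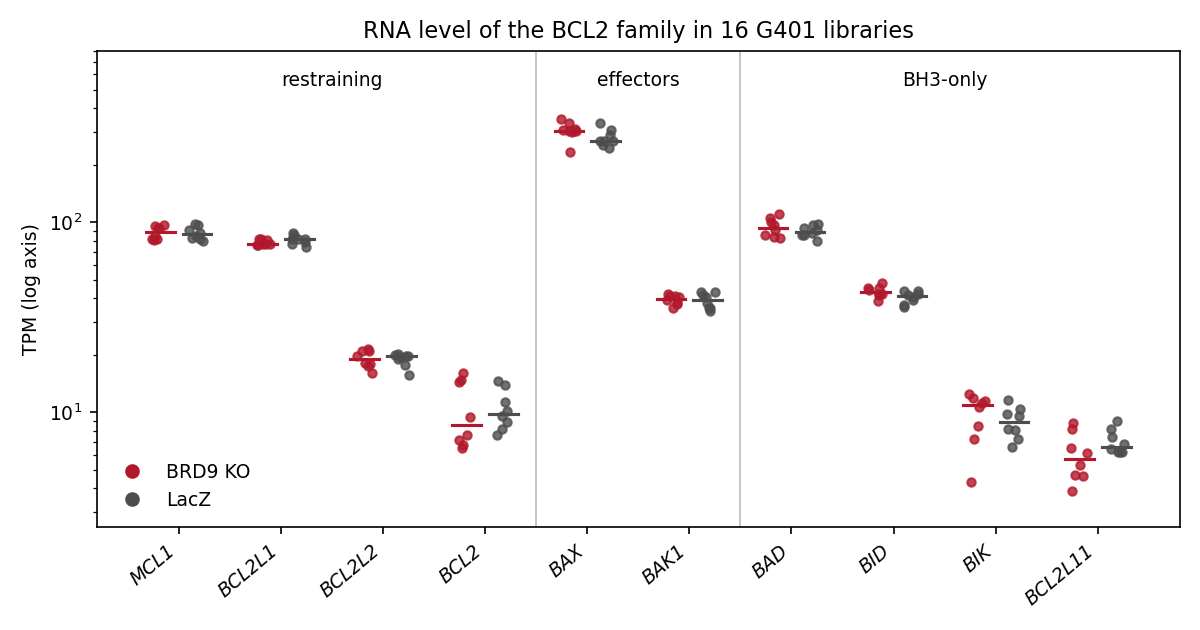
Deposited TPM (log axis) of the 10 members in each of the 16 libraries, BRD9 KO left of LacZ, grouped by role; each point is a library and each line the median of 8. BAX sits between 234.74 and 351.14 TPM, above all libraries of the other members, and BCL2 has the lowest median of the restraining members.

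BRD9 loss was accompanied by lower RNA of the restraining members BCL2 and BCL2L1 and by modestly higher RNA of the effector BAX, while MCL1, BCL2L2, BAK1, BID, BIK and BCL2L11 were not called on any day. Counts were compared between the guides on each day with edgeR's quasi-likelihood test, and a gene was called at a Benjamini-Hochberg adjusted p under 0.05 over the 15027 genes. On day 1 the test called 0 of 10 members (0 also had an unadjusted p under 0.05, and DESeq2 and limma also called 0), against 0.539% of all genes tested. On day 2 it called 1 member, BAX, against 2.70% of all genes. On day 3 it called 2 members, BCL2 and BCL2L1, both lower, against 10.4% of all genes called in either direction and 5.85% called lower. On day 5 it called 4 members, BAX and BAD higher and BCL2 and BCL2L1 lower, against 15.0% of all genes. These small counts moved with single libraries: 0 members were called on day 2 without any 1 of its libraries, 1 on day 3 without replicate 1 of either guide, and 2 on day 5 without either BRD9 KO replicate or without LacZ replicate 1.

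**Figure D2:**
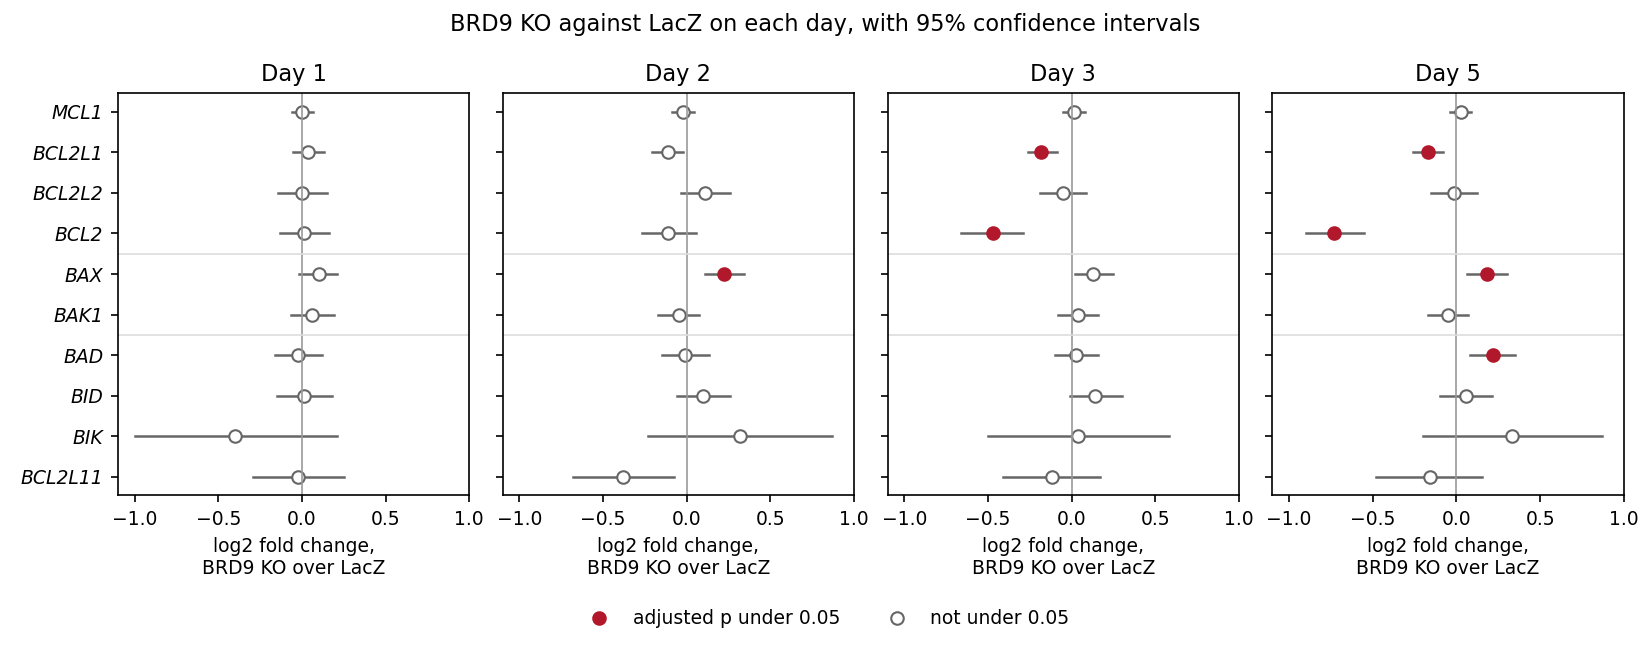
Log2 fold change of each member, BRD9 KO over LacZ (x axis), on days 1, 2, 3 and 5, grouped by role from restraining members at the top to BH3-only members at the bottom; bars are 95% confidence intervals and filled points have an adjusted p under 0.05. BCL2 moves from 0.014 on day 1 to -0.73 on day 5, and MCL1 stays within 0.025 of 0.

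BCL2, the founding restraining member, showed the largest called change of the 10 genes. In CPM (counts scaled to the library total with TMM factors), it was at 50.39 and 47.55 in BRD9 KO and 47.23 and 49.12 in LacZ libraries on day 1. On day 2 it was at 33.79 and 32.41 CPM in BRD9 KO and 37.64 and 33.75 CPM in LacZ libraries. The guides overlapped on both days. On day 3 BCL2 was at 21.72 and 19.95 CPM in BRD9 KO and 26.34 and 31.83 CPM in LacZ libraries. On day 5 it was at 20.07 and 20.75 CPM in BRD9 KO and 34.16 and 33.5 CPM in LacZ libraries. Both BRD9 KO libraries were below both LacZ libraries on these later days, and on day 5 the gap between guides was many times that between libraries of a guide.

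The log2 fold change of BCL2 was 0.014 on day 1 (standard error 0.0671, edgeR quasi-likelihood adjusted p = 0.984) and -0.11 on day 2 (standard error 0.0773, adjusted p = 0.604). It was -0.47 on day 3 (standard error 0.0863, adjusted p = 0.00123) and -0.73 on day 5 (standard error 0.085, adjusted p = 6.05e-06), which left 72% and 60.5% of the LacZ level on these days. Taking days 3 and 5 together, it fell by 0.60 on the log2 scale (95% confidence interval -0.73 to -0.47, adjusted p = 6.26e-07). The change on days 3 and 5 was more negative than that on days 1 and 2 by 0.55 (difference -0.55, standard error 0.0794, adjusted p = 0.000151), the only member for which this test called a difference, against 7.43% of all genes. The BCL2 calls on day 3, on day 5, over days 3 and 5 and between the periods all held when any 1 library was left out. In bulk RNA, fewer cells that express a gene and less RNA per cell cannot be told apart.

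BCL2 also declined with time in the control. In LacZ cells on day 5 it was lower than on day 1 by 0.51 on the log2 scale (log2 fold change -0.51, edgeR quasi-likelihood adjusted p = 3.2e-05, 70.2% of the day 1 level). The BRD9 KO cells of day 5 were thus compared with LacZ cells whose own BCL2 was below its day 1 level. This time comparison within LacZ called 6 of 10 members, against 25.6% of all genes, and 2 when replicate 1 of LacZ on day 1 was left out.

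BCL2L1, which encodes BCL-XL, was modestly lower in BRD9 KO cells on the later days. On day 3 it was at 102.5 and 104.2 CPM in BRD9 KO and 119.16 and 114.27 CPM in LacZ libraries. On day 5 it was at 105.46 and 104.85 CPM in BRD9 KO and 120.18 and 115.63 CPM in LacZ libraries. In CPM the guides did not overlap on either day. In TPM they overlapped slightly on day 5, at 82 and 76.7 in BRD9 KO and 88.2 and 81.96 in LacZ libraries. On day 1 BCL2L1 was at 112.28 and 106.6 CPM in BRD9 KO and 107.54 and 105.33 CPM in LacZ libraries, which overlapped. On day 2 it was at 100.27 and 101.64 CPM in BRD9 KO and 113.16 and 105.09 CPM in LacZ libraries, which did not.

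The log2 fold change of BCL2L1 was -0.18 on day 3 (standard error 0.0421, edgeR quasi-likelihood adjusted p = 0.0101) and -0.17 on day 5 (standard error 0.0423, adjusted p = 0.0104). Over days 3 and 5 together it was -0.17 (95% confidence interval -0.23 to -0.11, adjusted p = 0.000308, 88.8% of the LacZ level). The difference between the periods, -0.13, did not pass the test (adjusted p = 0.0721, but 0.0309 without LacZ day 2 replicate 1). Each single-day call rested on particular libraries. The day 3 adjusted p was 0.0948 without BRD9 KO replicate 1 and 0.121 without LacZ replicate 1, and the day 5 adjusted p was 0.0731 without BRD9 KO replicate 2 and 0.129 without LacZ replicate 1. The call over days 3 and 5 held when any 1 library was left out, with an adjusted p of 0.000696 to 0.00359. Between days 1 and 5 mean BCL2L1 went from 109.4 to 105.2 CPM in BRD9 KO, a change that was not tested, and from 106.4 to 117.9 CPM in LacZ libraries. In LacZ cells this rise was 0.15 on the log2 scale (edgeR quasi-likelihood adjusted p = 0.013). That call was lost without LacZ day 1 replicate 2 (adjusted p = 0.0968) or LacZ day 5 replicate 1 (adjusted p = 0.163).

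MCL1 and BCL2L2, the other restraining members, were not called in any comparison of the guides. MCL1 was at 182.16 to 223.4 CPM in BRD9 KO, against 181.71 to 222.8 CPM in LacZ libraries, and its log2 fold change over days 3 and 5 was 0.019 (95% confidence interval -0.026 to 0.065, edgeR quasi-likelihood adjusted p = 0.6). MCL1 thus had the narrowest interval of the family, and it leaves room for a change of a few percent. In LacZ cells MCL1 fell by 0.10 on the log2 scale between days 1 and 5 (adjusted p = 0.0176, but 0.0963 without LacZ day 1 replicate 1, 0.131 without LacZ day 5 replicate 2 and 0.0622 by DESeq2). BCL2L2 was at 32.94 to 37.89 CPM in BRD9 KO, against 31.87 to 37.54 CPM in LacZ libraries, with a log2 fold change of -0.034 over days 3 and 5 (95% confidence interval -0.13 to 0.064, adjusted p = 0.674). The restraining members taken as a group had 2 of 4 lower and 0 higher over days 3 and 5, with a median log2 fold change of -0.10, beside a median of -0.0003 over all genes tested and 10.9% of all genes called lower. All 10 members had 3 called in this comparison, against 21.5% of all genes.

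**Figure D3:**
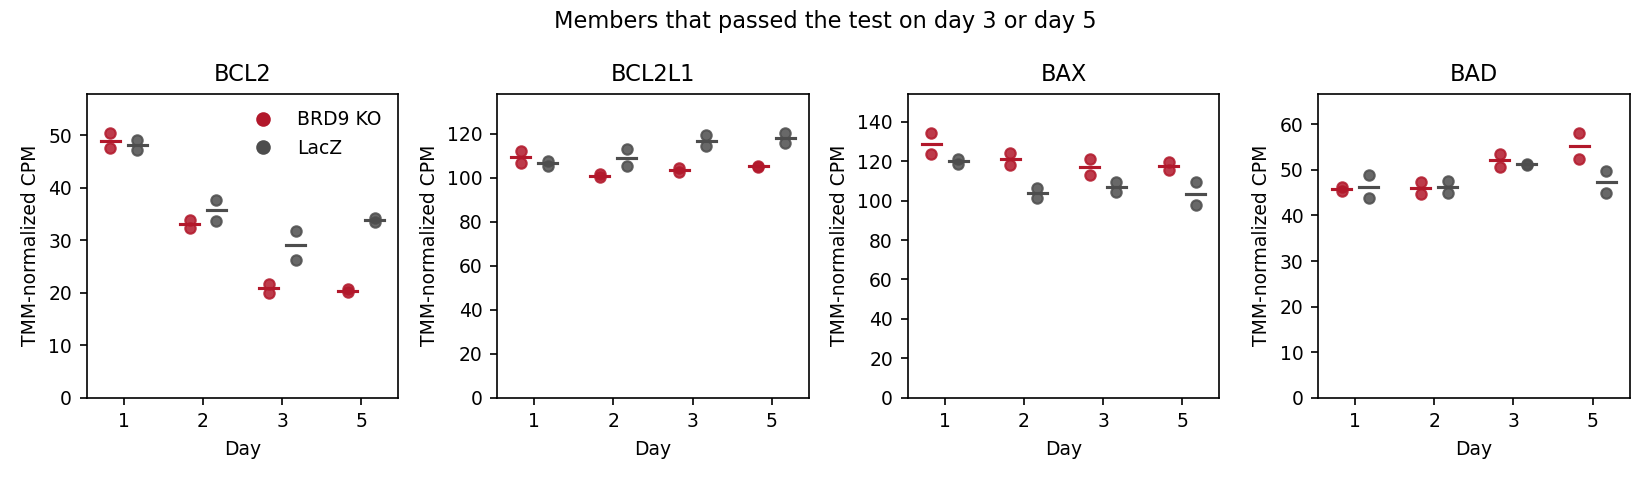
TMM-normalized CPM of BCL2, BCL2L1, BAX and BAD in each library by day (x axis), BRD9 KO left of LacZ; points are libraries and lines the means of 2. BCL2 is lower on day 5 than on day 1 in both guides, and on day 5 it is at 20.07 and 20.75 CPM in BRD9 KO against 34.16 and 33.5 CPM in LacZ libraries.

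BAX, the effector with the highest RNA level, was higher in BRD9 KO cells in both periods and by a like amount. On day 1 it was at 134.16 and 123.71 CPM in BRD9 KO and 121.3 and 118.51 CPM in LacZ libraries, and on day 2 at 118.23 and 124.36 CPM in BRD9 KO and 101.13 and 106.28 CPM in LacZ libraries. On day 3 it was at 121.14 and 112.88 CPM in BRD9 KO and 109.62 and 104.13 CPM in LacZ libraries, and on day 5 at 119.54 and 115.62 CPM in BRD9 KO and 109.17 and 97.55 CPM in LacZ libraries. In CPM, both BRD9 KO libraries were above both LacZ libraries on every day. In TPM the guides overlapped on day 3, with BAX at 301.01 and 234.74 in BRD9 KO and 269.14 and 255.31 in LacZ libraries.

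The log2 fold change of BAX was 0.10 on day 1 (edgeR quasi-likelihood adjusted p = 0.579), 0.22 on day 2 (adjusted p = 0.0349), 0.13 on day 3 (adjusted p = 0.139) and 0.18 on day 5 (adjusted p = 0.0334). It was 0.16 over days 1 and 2 (adjusted p = 0.0246) and 0.16 over days 3 and 5 (standard error 0.0388, adjusted p = 0.00617, 112% of the LacZ level), and the difference between the periods was -0.004 (95% confidence interval -0.12 to 0.11, adjusted p = 0.99). BAX was the 1 member called over days 1 and 2, against 3.31% of all genes. Its calls outside days 3 and 5 depended on single libraries. The day 2 call was lost when any 1 of its 4 libraries was left out (adjusted p = 0.0778 to 0.277). The day 5 call was lost without BRD9 KO replicate 1 (adjusted p = 0.167), BRD9 KO replicate 2 (adjusted p = 0.0753) or LacZ replicate 2 (adjusted p = 0.338), and the last of these left a log2 fold change of 0.105. Over days 1 and 2 the adjusted p was between 0.0514 and 0.112 when the library left out was replicate 1 of BRD9 KO or either replicate of LacZ on day 1, or replicate 2 of BRD9 KO or replicate 1 of LacZ on day 2. Over days 3 and 5 the call held without any 1 library (adjusted p = 0.00184 to 0.0462). BAX fell with time in LacZ cells, by 0.21 on the log2 scale between days 1 and 5 (adjusted p = 0.00816), but without LacZ day 1 replicate 1 or LacZ day 5 replicate 2 the adjusted p was 0.0536 and 0.139.

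BAK1, the other effector, was not called between the guides. It was at 45.18 to 51.63 CPM in BRD9 KO, against 43.34 to 51.9 CPM in LacZ libraries, with a log2 fold change of -0.0055 over days 3 and 5 (95% confidence interval -0.091 to 0.08, edgeR quasi-likelihood adjusted p = 0.957). It was higher on day 5 than on day 1 in LacZ cells by 0.20 on the log2 scale (adjusted p = 0.00516, but 0.0513 without LacZ day 1 replicate 1 and 0.0621 by DESeq2).

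BAD, a BH3-only protein that binds BCL-XL and BCL2, was the only member of its group to be called between the guides, and only on day 5. It was then at 58.04 and 52.46 CPM in BRD9 KO and 44.95 and 49.8 CPM in LacZ libraries. The guides did not overlap on day 5. On day 3 BAD was at 53.51 and 50.67 CPM in BRD9 KO and 51.14 and 51.39 CPM in LacZ libraries, where the guides overlapped, as they did on day 1, at 46.2 and 45.45 CPM in BRD9 KO and 43.87 and 48.79 CPM in LacZ libraries, and on day 2, at 44.73 and 47.41 CPM in BRD9 KO and 44.95 and 47.64 CPM in LacZ libraries.

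The log2 fold change of BAD on day 5 was 0.22 (standard error 0.0639, edgeR quasi-likelihood adjusted p = 0.0275, 116% of the LacZ level). It did not hold without BRD9 KO replicate 1 (log2 fold change 0.15, adjusted p = 0.215) or LacZ replicate 1 (0.138, adjusted p = 0.329), by DESeq2 (adjusted p = 0.0998), or with the spread estimated from the day 5 libraries alone (adjusted p = 0.0591). Over days 3 and 5 the log2 fold change was 0.12 (adjusted p = 0.061), with an adjusted p of 0.0245 without BRD9 KO day 5 replicate 2 and 0.0302 without LacZ day 5 replicate 2.

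BCL2L11, which encodes BIM, an activator of BAX and BAK1, was at 10.08 to 18.79 CPM in BRD9 KO, against 12.06 to 19.18 CPM in LacZ libraries. Its log2 fold change of -0.38 on day 2 did not pass the test (95% confidence interval -0.68 to -0.076, edgeR quasi-likelihood adjusted p = 0.222), and over days 3 and 5 it was -0.14 (95% confidence interval -0.36 to 0.071, adjusted p = 0.369). In LacZ cells it was lower on day 5 than on day 1 (log2 fold change -0.47, adjusted p = 0.0157), but not without LacZ day 1 replicate 1 (adjusted p = 0.0902) or LacZ day 5 replicate 1 (adjusted p = 0.204).

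BID, which links death receptors to mitochondria once cut by caspase-8, was at 31.17 to 36.98 CPM in BRD9 KO, against 29 to 35.9 CPM in LacZ libraries. Over days 3 and 5 its log2 fold change was 0.10 (95% confidence interval -0.0087 to 0.21, edgeR quasi-likelihood adjusted p = 0.193). BIK, a BH3-only protein found mainly at the endoplasmic reticulum, had only 21 to 103 counts per library, and its log2 fold change of 0.19 over days 3 and 5 had the widest interval of the family (95% confidence interval -0.19 to 0.57, adjusted p = 0.526). At this depth a BIK difference of the size seen was not detectable.

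As a class, the 6 members that promote apoptosis had 1 higher and 0 lower over days 3 and 5, against 10.6% of all genes called higher, with a median log2 fold change of 0.11. The restraining members, with 0 higher and 2 lower, and the promoting members are compared here by counts only, since the genes were chosen with results in view. The called members that restrain apoptosis were lower and the called member that promotes it was higher. These are 3 of 10 members, near the share of 21.5% of all genes. Of the promoting members not called over days 3 and 5, BAD, BID and BIK lay above 0, and BCL2L11 (-0.14) and BAK1 (-0.0055) below. Whether the direction goes with the role was not tested.

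The levels of BCL2, BCL2L1 and MCL1 relative to BAX followed from these values, and BCL2L2 was not set against BAX. BCL2 over BAX, as a ratio of CPM, was 0.168 and 0.179 in BRD9 KO and 0.313 and 0.343 in LacZ libraries on day 5, and 0.376 and 0.384 in BRD9 KO and 0.389 and 0.415 in LacZ libraries on day 1. BCL2L1 over BAX was 0.817 to 0.923 in BRD9 KO, against 0.887 to 1.185 in LacZ libraries (n = 8 each). MCL1 over BAX was 1.466 to 1.806 in BRD9 KO, against 1.682 to 2.086 in LacZ libraries, although MCL1 itself was not called. These ranges pool the days. For each of the ratios, both BRD9 KO libraries lay below both LacZ libraries on every day, and all share BAX as the denominator. These ratios are of read counts within a gene pair and carry the lengths of both transcripts, so that they compare libraries and not genes.

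**Figure D4:**
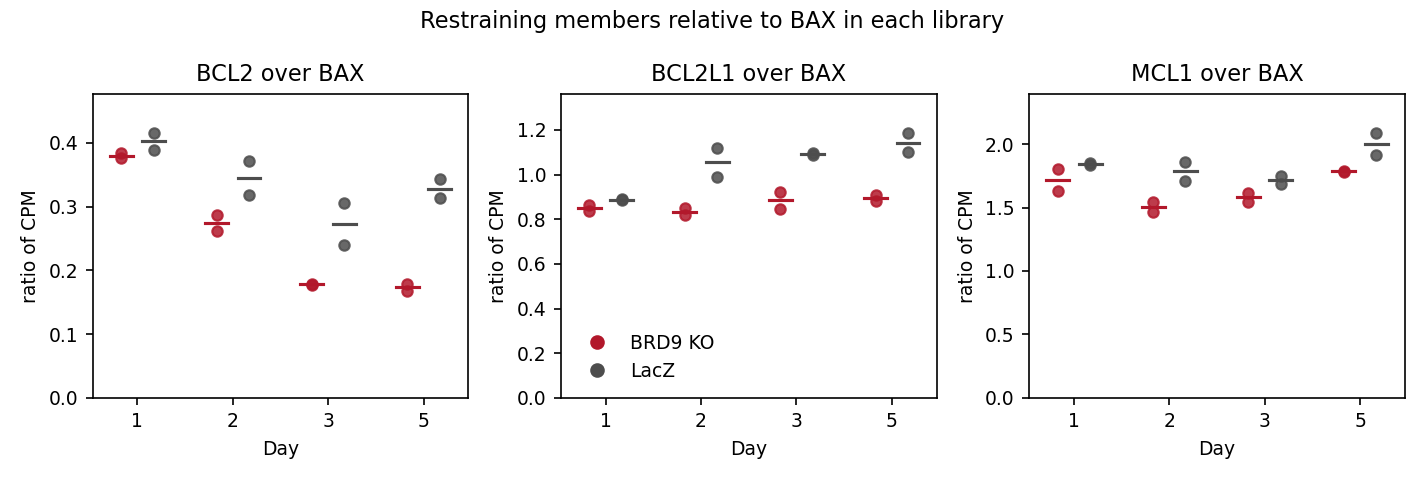
Ratio of CPM of BCL2, BCL2L1 and MCL1 to BAX in each library by day (x axis), BRD9 KO left of LacZ; points are libraries and lines the means of 2. The ratio of BCL2 to BAX on day 5 is 0.168 and 0.179 in BRD9 KO and 0.313 and 0.343 in LacZ libraries.

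Summed over members in TPM, the restraining members were at 182.5 to 207.9 TPM in BRD9 KO, against 187.9 to 208.9 TPM in LacZ libraries, nearly the same range. BCL2 made up only 3.44% to 7.72% of this sum in BRD9 KO, against 3.89% to 7.2% in LacZ libraries, and MCL1 and BCL2L1 made up most of it. The ratio of restraining to promoting TPM was 0.379 to 0.419, median 0.393, in BRD9 KO, against 0.408 to 0.454, median 0.427, in LacZ libraries. On days 2, 3 and 5 both BRD9 KO libraries lay below both LacZ libraries, and on day 1 they met at 0.408. BAX alone outweighed the other promoting members in this ratio.

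The size of the BCL2 change depended on the unit. RSEM, which made the tables, weights each gene's length by the transcripts it assigns, and for BCL2 this length was 4066 to 5818 bases in BRD9 KO, against 5557 to 6862 bases in LacZ libraries. On day 5 it was 4532 and 4898 bases in BRD9 KO and 5651 and 6862 bases in LacZ libraries. A shorter length gives a higher TPM for the same number of reads. The length differed even between libraries of a group, at 4066 and 5818 bases in the BRD9 KO libraries of day 2.

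BCL2 in TPM was 6.53 and 6.75 in BRD9 KO and 7.65 and 9.57 in LacZ libraries on day 3, and 7.59 and 7.2 in BRD9 KO and 10.16 and 8.14 in LacZ libraries on day 5. The guides did not overlap on either day in this unit either. With limma-trend on log2(TPM + 1), however, the change over days 3 and 5 was -0.295 with an adjusted p of 0.182, and no call of any member between the guides was kept. With limma-trend on log2 CPM, a fit added after seeing this, BCL2 was at -0.601 over days 3 and 5 (adjusted p = 2.16e-07), and with DESeq2 at -0.602 (adjusted p = 5.82e-12). Every member call between the guides that edgeR made was also made by limma-trend on log2 CPM. Whether the mix of BCL2 transcripts differed between the guides was not tested.

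**Figure D5:**
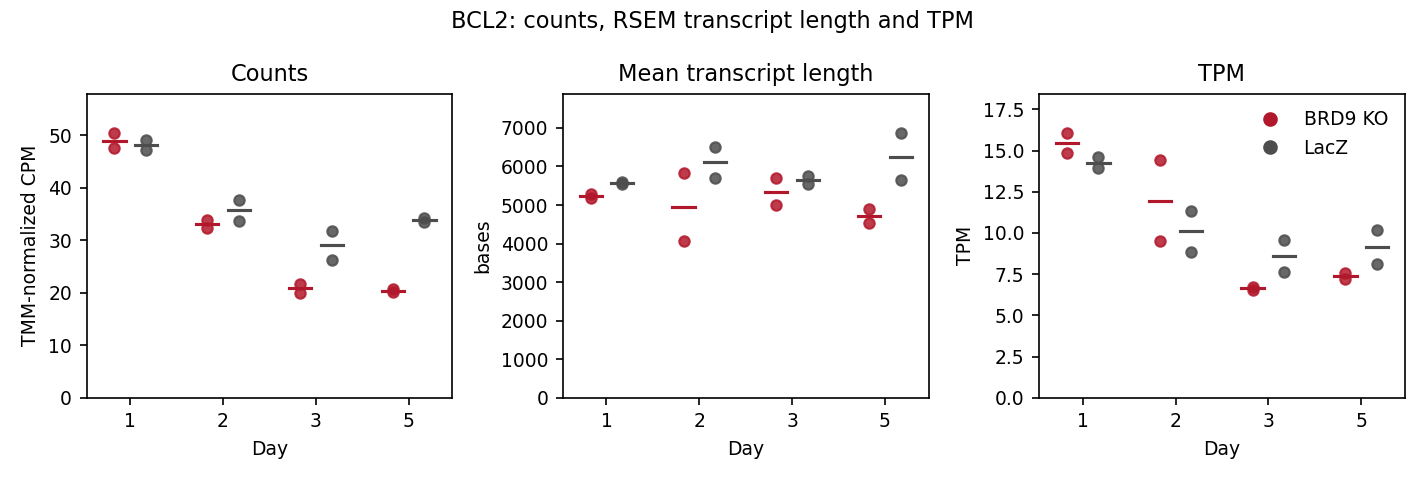
BCL2 in each library by day (x axis), BRD9 KO left of LacZ, as TMM-normalized CPM (left), as RSEM's mean transcript length in bases (middle) and as TPM (right); points are libraries and lines the means of 2. On day 5 the length is 4532 and 4898 bases in BRD9 KO and 5651 and 6862 bases in LacZ libraries, and the gap between guides is smaller in TPM than in CPM.

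The lengths of the other called members varied less. BCL2L1 was at 2230 to 2363 bases in BRD9 KO, against 2304 to 2412 bases in LacZ libraries, and BAX at 677 to 876 bases in BRD9 KO, against 672 to 748 bases in LacZ libraries, with the highest value in BRD9 KO replicate 2 of day 3. BAD was at 935 to 981 bases in BRD9 KO, against 934 to 977 bases in LacZ libraries. Over days 3 and 5 together, the changes of BCL2L1 and BAX were nevertheless smaller in TPM than in counts. Limma-trend on log2(TPM + 1) gave -0.096 for BCL2L1 (adjusted p = 0.172) and 0.115 for BAX (adjusted p = 0.349). By day this fit gave 0.02 for BAX on day 3 and 0.21 on day 5, against 0.13 and 0.18 in counts, so that on day 5 the change was not smaller in TPM.

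The spans of some members, introns included, overlap those of neighbouring genes in the GENCODE annotation used here. That annotation may differ from the one behind the counts, and whether exons overlap was not examined. The library kit named by the study does not mark strand, so reads in any shared stretches cannot be told apart by strand. BCL2L2 is joined on its strand by the readthrough gene BCL2L2-PABPN1, which was at 9.85 to 19.87 TPM in BRD9 KO, against 10.52 to 17.35 TPM in LacZ libraries and rose over days 3 and 5 (log2 fold change 0.41, edgeR quasi-likelihood adjusted p = 0.00547). The counts of BCL2L2 are uncertain to that extent. MCL1 is overlapped on the opposite strand by ADAMTSL4, which had up to 3013 counts in a library. ADAMTSL4 was lower over days 3 and 5 (log2 fold change -0.24, adjusted p = 1.15e-05). Also overlapped on the opposite strand are BCL2L2 by PPP1R3E (-0.19, adjusted p = 0.126), BCL2L11 by MIR4435-2HG (0.02, adjusted p = 0.806) and BAD by GPR137 (-0.00, adjusted p = 0.97). How many reads of these members came from such stretches was not tested. The genes that overlap BCL2, BCL2L1, BAK1 and BID, as far as the tables hold them, had at most 1 count in any library, and none was found for BAX and BIK.

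The rest of the family was examined as a list of 11 genes. Of these, 6 were abundant enough to test, and 1 was called over days 3 and 5, against 21.5% of all genes, so that the share was near that of all genes. The called gene was BOK, a relative of BAX and BAK1. BOK was at 58.86 and 53.8 CPM in BRD9 KO and 45.02 and 46.5 CPM in LacZ libraries on day 5, and at 48.29 and 52.01 CPM in BRD9 KO and 52.2 and 53.25 CPM in LacZ libraries on day 1. It was thus above the control only later, with a log2 fold change of 0.20 over days 3 and 5 (edgeR quasi-likelihood adjusted p = 0.000573) and a difference between the periods of 0.22 (adjusted p = 0.0169). In LacZ cells BOK was itself lower on day 5 than on day 1 (log2 fold change -0.21, adjusted p = 0.00736 by the same test). BCL2L12, the most abundant of those not called, averaged 89.66 TPM over the 16 libraries. BCL2L14, BCL2L10, BCL2A1, PMAIP1 and BCL2L15 had at most 3 counts in any library and were not tested, so the BH3-only gene PMAIP1, which encodes NOXA, was not detectable at this depth.

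Downstream of the mitochondria, the genes of the apoptosis machinery are reported in part, with no count over the list. XIAP, which inhibits caspases, was at 104.55 and 108.26 CPM in BRD9 KO and 78.73 and 72.34 CPM in LacZ libraries on day 5 (log2 fold change 0.45 over days 3 and 5, edgeR quasi-likelihood adjusted p = 2.49e-08). DFFA, the inhibitor and chaperone of the apoptotic nuclease, was also higher (0.11, adjusted p = 0.000726). CYCS, which encodes cytochrome c and was the most abundant of those not called, was at -0.044 on the log2 scale (adjusted p = 0.0983).

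Among 18 genes for binding partners and for turnover of the family, 3 were higher and 3 lower over days 3 and 5, against 10.6% and 10.9% of all genes called higher and lower. SFN, the 14-3-3 protein sigma, was at 210.19 and 195.1 CPM in BRD9 KO and 148.54 and 142.71 CPM in LacZ libraries on day 5 (log2 fold change 0.32 over days 3 and 5, edgeR quasi-likelihood adjusted p = 3.57e-08). DYNLL2, the dynein light chain that binds the BH3-only protein BMF, was at 51.59 and 57.14 CPM in BRD9 KO and 67.57 and 67.17 CPM in LacZ libraries on day 5 (-0.32, adjusted p = 1.61e-06). TPT1, which binds BCL-XL and MCL1, and the mitochondrial channel VDAC1 were higher by 0.074 and 0.094 on the log2 scale (adjusted p = 0.0001 and 0.000475). HUWE1, a ubiquitin ligase of MCL1, changed by -0.11 (adjusted p = 0.000203) and YWHAQ, the 14-3-3 protein theta, by -0.074 (adjusted p = 0.0132). The most abundant gene of the list that was not called was YWHAE, the 14-3-3 protein epsilon (-0.024, adjusted p = 0.28).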

How the data were processed

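RNA-seq of BRD9 KO and LacZ G401 cells was analysed, 2 libraries for each guide on days 1, 2, 3 and 5. The authors made libraries with a NEBNext Ultra RNA kit, aligned reads to hg19 with STAR and quantified genes with RSEM (versions and annotation release not given in the sources used here). The deposited expected counts are RSEM's estimates of reads per gene; 35.7% of those above 0 were not whole, and rounding moved a library's total by at most 90.1. The deposited TPM is scaled by the authors' RSEM for transcript length and library total. The deposited length per gene is RSEM's weighted transcript length. The authors used DESeq2.

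Here expected counts were rounded, filtered with filterByExpr (minimum count 10, minimum total 15) to 15027 genes, scaled by TMM and tested with edgeR 4.0.16 (quasi-likelihood, R 4.3.3), with a mean for each of 8 groups and 8 residual degrees of freedom. Calls needed a Benjamini-Hochberg adjusted p under 0.05. Standard errors were kept at or above counting noise. Libraries of a group differed by 1.054 to 1.15 times counting noise. Members and lists were chosen with earlier results of these data known. Genes named were the members, the label checks, genes that overlap members, up to 4 called genes per direction and the most abundant uncalled gene of each other list, and the 3 genes most like BCL2 and BCL2L1. Alternatives were DESeq2 size factors, no filter or a filter of 1 CPM, DESeq2 1.42.0, limma-trend (limma 3.58.1) on log2 TPM with a pseudocount of 1 or 0.1, the libraries of a contrast alone, a replicate block within or across days, each library left out, and, added after seeing the data, limma-trend on log2 CPM. Scripts were tested on simulated data. Coordinates and reading frames are from GENCODE on GRCh37. Results for a few listed genes are not reported here.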

Additional observations from a re-analysis of the deposited data

Results flagged for a closer look

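The effect of BRD9 KO on BCL2 differed between the periods: the log2 fold change was -0.047 over days 1 and 2 and -0.60 over days 3 and 5, a difference of -0.55 (edgeR quasi-likelihood adjusted p = 0.000151 over 15027 genes). Both BRD9 KO libraries were below both LacZ libraries on days 3 and 5, and the guides overlapped on days 1 and 2.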

How the results depend on the processing

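No member's called change turned its direction under any alternative. Over the alternatives other than leaving out a library, 716 of the members' fold changes kept their direction and their side of the threshold, 38 lost and 2 gained a call, and 24 that were not called either way changed sign. With limma-trend on log2 TPM, at a pseudocount of 1 or 0.1, the members called were 0 on day 2, day 3 and day 5, 0 over days 1 and 2, 0 over days 3 and 5, 0 between the periods and 1 for LacZ day 5 against day 1. With limma-trend on log2 CPM they were as reported in every comparison.

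Over all genes, DESeq2 called 264 on day 2, 908 on day 3, 1350 on day 5, 1979 over days 3 and 5, 626 between the periods and 2393 for LacZ day 5 against day 1. Limma-trend on TPM called, at a pseudocount of 1 and then of 0.1, 11 and 12 genes on day 1, 103 and 99 on day 2, 412 and 404 on day 3, 994 and 973 on day 5, 132 and 135 over days 1 and 2, 1534 and 1514 over days 3 and 5, 317 and 315 between the periods and 1811 and 1812 for LacZ over time. On day 1, no filter on low counts called 290 genes and the libraries of the contrast alone 45. The cause was not tested for these.

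With each library left out in turn, the members called numbered 0 to 0 on day 1, 0 to 0 on day 2, 1 to 2 on day 3, 2 to 3 on day 5, 0 to 1 over days 1 and 2, 3 to 4 over days 3 and 5, 1 to 2 between the periods and 2 to 5 for LacZ over time. The genes called numbered 14 to 33 on day 1, 205 to 264 on day 2, 869 to 1055 on day 3, 1464 to 1637 on day 5, 324 to 443 over days 1 and 2, 2571 to 2895 over days 3 and 5, 845 to 987 between the periods and 2608 to 2836 for LacZ over time. The lone library of a group was then assumed to vary like the other groups.

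Residuals of same-numbered libraries correlated at -0.0103, -0.0638, -0.0253 and -0.0168 over all genes tested on days 1, 2, 3 and 5. Among the 6263 genes whose mean log2 CPM exceeded 5, the correlations on these days were -0.0436, -0.119, 0.101 and 0.176. The sign thus differed between days and gene sets, no label ties the numbers to a shared culture or day, and they were not taken as a pairing. A replicate block within days left the members called at 0, 1, 2 and 4 on these days, at 1 over days 1 and 2, 3 over days 3 and 5 and 1 between the periods, and the genes called at 76, 369, 1518 and 2206 on the 4 days, 462 over days 1 and 2, 3122 over days 3 and 5 and 1015 between the periods. A block across days left the LacZ comparison over time at 6 members and 3841 genes. With 2 libraries a group and BIK at 21 counts in its lowest library, small changes of the low members cannot be resolved.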

Other observations

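The genes whose log2 CPM over the 16 libraries followed BCL2 most closely, among 10100 genes compared, were KIDINS220 (Pearson r = 0.984), PYGO1 (0.98) and HMGN3 (0.98), and those closest to BCL2L1 were PRPF8 (0.832), UBAP2L (0.827) and AJUBA (0.817). These are descriptions over libraries that share guides and days. Over days 3 and 5 the log2 fold changes of the first group were -0.43, -0.32 and -0.21, and those of the second group -0.09, -0.06 and -0.24.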
